A study of Mus musculus with 8 samples.

Results

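Prostaglandin genes were followed in fibroblasts, the main matrix-building cells of the dermis, sorted from young and old mice. The members were 10 genes: the cyclooxygenases Ptgs1 and Ptgs2, the terminal synthases Ptges, Ptgis and Ptgds, the breakdown enzyme Hpgd, and the receptors Ptger2, Ptger3, Ptger4 and Ptgfr. They were found as the probe sets that the platform annotation assigns to 1 of these symbols and to no other gene, which gave 19 probe sets of 45141 in all. These 19 covered 9 of the 10 genes, or 9 of 17097 genes measured. No probe set was matched to Ptgs1, and it is not analysed here.

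The samples were 4 young mice (2 months) and 4 old mice (18 months), all male and of the C57Bl/6 strain, with 1 Affymetrix array per mouse. The skin was freed of subdermis and digested with collagenase, and the cells collected by flow cytometry lacked CD45, CD117, CD24, CD31 and EpCam and carried Pdgfra and CD34. RNA from 5000 cells of each mouse went through 21 cycles of amplification, so a member's level is an average over those cells, and fewer cells of a type cannot be told apart from less RNA per cell. The design text has mice of both ages, 2 of each, taken on every collection day, without saying which. The numbers in the sample titles fall into 2 runs, each with 2 young mice (replicates 1 and 2, or 3 and 4) and 2 old mice (likewise replicates 1 and 2, or 3 and 4), and whether these runs are the collection days is not stated. Replicate numbers follow the order of deposit within an age and pair no mice.

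Prostaglandins are lipid signals made from arachidonic acid. A phospholipase frees the fatty acid from the membrane, a cyclooxygenase turns it into the unstable prostaglandin H2, and a terminal synthase turns that into prostaglandin E2, prostacyclin or prostaglandin D2, which act on G protein-coupled receptors of nearby cells and are then inactivated, first by the dehydrogenase that Hpgd encodes. In skin, prostaglandin E2 takes part in inflammation, pain and wound repair, and fibroblasts are among the cells that make it. Values below are log2 expression values per probe set, on which a difference of 1 is a doubling. Differences are those of old minus young mice, each with its standard error (SE), and adjusted p-values come from limma, a linear model fitted to all 17097 genes by the brightest probe set of each, with adjusted p under 0.05 as the threshold.

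No member passed this threshold. Of the 9 measured genes 0 were called higher and 0 lower, against 3.97% of all genes called (1.82% higher and 2.15% lower), and 1 of the 9, Ptgs2, had an unadjusted p under 0.05 in limma, against 15.1% of all genes. Fitted as single probe sets among 45037, with array controls left out, 0 of the 19 passed limma's threshold, against 2.58% of all probe sets (1.23% higher and 1.35% lower), and 2 of the 19 had an unadjusted p under 0.05, against 13.4%. Young and old values overlapped in all 19 probe sets, while the groups did not overlap for 9.7% of all genes and 8.44% of all probe sets. The median difference of the 9 genes was 0.05 and that of all genes 0.01. The 95% intervals of all 9 genes lay within a 2-fold difference in either direction, from -0.77 at the lowest bound (Hpgd) to 0.64 at the highest (Ptgfr).

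**Figure D1:**
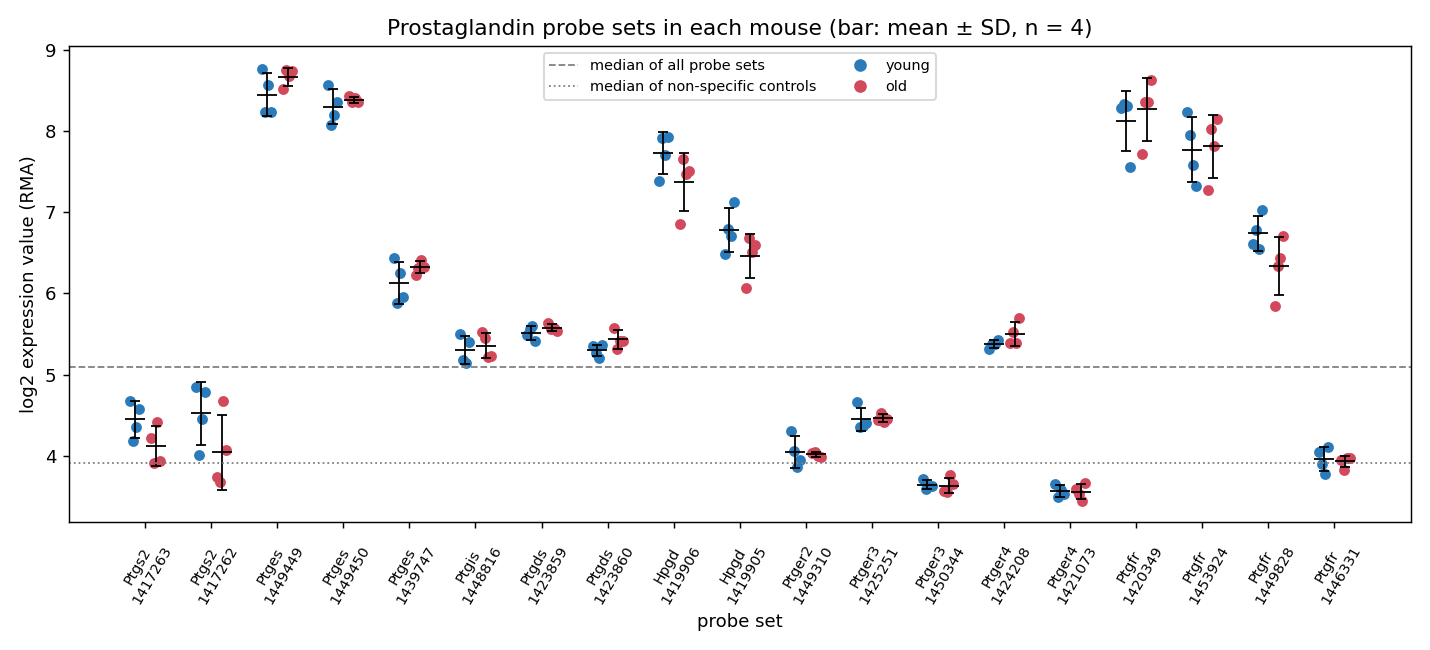
Log2 expression values (RMA) of the 19 member probe sets, 1 point per mouse, young in blue and old in red, with bars for the mean ± SD of 4 mice. The dashed line is the median of all probe sets (5.10) and the dotted line the median of the non-specific controls (3.91). The young and old points of each probe set overlap.

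Level on the array set how much could be seen of each gene. The median of all probe sets, 5.10, was used to call lower probe sets dim. The 23 control probe sets for non-specific signal had a median of 3.91 and reached 7.20 on single arrays. By their means over the 8 mice, 12 of the 19 member probe sets lay above 5.10. The 7 dim ones, with means from 3.56 to 4.46, were both probe sets of Ptgs2, both of Ptger3, the single one of Ptger2, and 1 each of Ptger4 and Ptgfr. In dim probe sets a change of transcript can be missed, so their differences carry less weight than those of the brighter probe sets of Ptges, Hpgd and Ptgfr. Not all of them were small: the 2 of Ptgs2 differed by -0.33 and -0.48, the latter the largest difference of the 19.

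Ptgs2 encodes cyclooxygenase-2, the form that inflammatory signals switch on. Its brightest probe set read 4.68, 4.18, 4.36 and 4.58 in young replicates 1 to 4 and 4.22, 3.91, 4.42 and 3.94 in old replicates 1 to 4. The mean was 4.45 ± 0.22 in young and 4.12 ± 0.24 in old mice (SD, n = 4), dim at both ages. The groups overlapped: old replicates 1 and 3 lay above young replicate 2. The difference was -0.33 ± 0.14 (SE; 95% interval -0.65 to -0.01; limma adjusted p = 0.309). The other probe set of Ptgs2 read 4.85, 4.01, 4.45 and 4.79 in young and 3.74, 3.68, 4.68 and 4.07 in old mice. It differed by -0.48 ± 0.25, with an interval from -1.04 to 0.07 that reached past a 2-fold decrease (limma adjusted p = 0.465 among all probe sets). Within the first run of title numbers the brightest probe set differed by -0.37 and within the second by -0.29. Ptgs2 had the smallest p of the members, and among 10552 other genes with means above 5.10 those whose values followed it most closely over the 8 arrays were Xpo4, Socs6 and Hoxd4, with Pearson r of 0.96, 0.93 and 0.92. Such values are the top of a long ranking over 8 arrays, in which 61 genes exceeded r = 0.8, and none of the 3 passed limma's threshold for age.

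The start regions of Ptgs2 and of Ptges, the prostaglandin E2 synthase often induced together with it, are shown because these genes form the inducible step of the route. Both run from 250 bases before the RefSeq start to 50 after it, 5′ to 3′ on the gene's strand, in the build GRCm38.p6 of the reference table (the build of the arrays' annotation is not given in the sources used here). Ptgs2 lies at chr1:150099781-150100080 on the + strand and Ptges at chr2:30903248-30903547 on the - strand. Capitals mark matches, on either strand, to 5 short motifs: the cyclic AMP response half-site CGTCA, the E-box CACGTG, the C/EBP palindrome TTGCGCAA, the GC box GGGCGG and the TATA box TATAAA.
Ptgs2: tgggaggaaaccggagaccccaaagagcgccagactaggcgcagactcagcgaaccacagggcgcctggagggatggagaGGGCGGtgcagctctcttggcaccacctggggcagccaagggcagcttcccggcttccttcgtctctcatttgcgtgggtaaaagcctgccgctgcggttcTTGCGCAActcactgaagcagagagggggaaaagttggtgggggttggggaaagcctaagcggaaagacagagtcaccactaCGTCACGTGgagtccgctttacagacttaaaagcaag
Ptges: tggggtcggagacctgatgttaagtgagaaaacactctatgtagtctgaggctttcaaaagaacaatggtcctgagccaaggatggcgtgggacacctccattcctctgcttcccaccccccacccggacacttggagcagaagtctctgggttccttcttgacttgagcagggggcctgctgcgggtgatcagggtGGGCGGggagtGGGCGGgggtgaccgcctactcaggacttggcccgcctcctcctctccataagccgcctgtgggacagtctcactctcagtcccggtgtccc
In Ptgs2 the CGTCA and CACGTG matches overlap and begin at bases 14 and 17 of the stretch after the RefSeq start, and TTGCGCAA begins 69 bases before that start. Among 32851 start regions of the same length, 20.8% hold CGTCA, 7.15% CACGTG, 0.183% TTGCGCAA, 35.7% GGGCGG and 13.6% TATAAA. The window of Ptges held GGGCGG at 2 places and no match to the other motifs. These matches describe the sequence and say nothing of which factor was bound.

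Ptges encodes microsomal prostaglandin E synthase-1, which makes prostaglandin E2. All 3 of its probe sets were above the dim threshold. The brightest read 8.76, 8.23, 8.56 and 8.23 in young replicates 1 to 4 and 8.51, 8.75, 8.67 and 8.74 in old replicates 1 to 4. Old replicates 2, 3 and 4 thus lay near the top of the young range, and old replicate 1 lay below young replicate 3. Young replicate 1 was above all old mice. The difference was 0.22 ± 0.12 (SE; 95% interval -0.06 to 0.50; limma adjusted p = 0.476), from 8.45 ± 0.26 to 8.67 ± 0.11 (SD, n = 4). As folds, that interval runs from 0.961 to 1.42. The second probe set read 8.57, 8.07, 8.20 and 8.35 in young and 8.43, 8.36, 8.40 and 8.35 in old mice, a difference of 0.09 ± 0.10. The remaining one differed by 0.19 ± 0.12. In each of the 3 the young mice spread wider than the old, with SDs of 0.26, 0.22 and 0.26 against 0.11, 0.04 and 0.07. This difference in spread was not tested.

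Ptgis encodes prostacyclin synthase, and its single probe set read 5.50, 5.18, 5.14 and 5.40 in young and 5.52, 5.45, 5.22 and 5.23 in old mice. These values lay just above the dim threshold, and the ages were interleaved. The difference was 0.05 ± 0.11 (SE; 95% interval -0.19 to 0.29; limma adjusted p = 0.915), and its sign turned without old replicate 1 and without young replicate 3. Ptgds encodes the lipocalin-type prostaglandin D synthase. Its brightest probe set read 5.49, 5.56, 5.60 and 5.41 in young and 5.64, 5.56, 5.58 and 5.54 in old mice, with a difference of 0.07 ± 0.07 (limma adjusted p = 0.758). The other probe set of Ptgds differed by 0.14 ± 0.07 (limma adjusted p = 0.495 among all probe sets). The 95% intervals of both Ptgds probe sets reached no higher than 0.30.

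Hpgd encodes 15-hydroxyprostaglandin dehydrogenase, which starts the inactivation of prostaglandins E2 and F2 alpha. Its brighter probe set read 7.38, 7.91, 7.70 and 7.93 in young replicates 1 to 4 and 6.85, 7.65, 7.47 and 7.50 in old replicates 1 to 4. Old replicate 1 was the lowest of the 8, and young replicate 1 lay below the other 3 old mice. The means were 7.73 ± 0.26 and 7.37 ± 0.35 (SD, n = 4), a difference of -0.36 ± 0.18 (SE; 95% interval -0.77 to 0.04; limma adjusted p = 0.402). Without old replicate 1 it was -0.19, and without young replicate 1 it was -0.48. The other probe set read 6.48, 6.79, 6.70 and 7.13 in young and 6.07, 6.68, 6.51 and 6.59 in old mice, a difference of -0.31 ± 0.16. Both probe sets put the 8 mice in the same order (Spearman's rho = 1, exact permutation p = 4.96e-05; Pearson r = 0.95, exact permutation p = 2.48e-05; adjusted over 8 pairs of probe sets 0.000397 and 0.000198), and r was 0.98 without the 2 mice farthest from the median. Within the first and second runs of title numbers the brighter probe set differed by -0.40 and -0.33. By gene, the members differed by at most 1.29-fold, the value of Hpgd, and 8.29% of all genes differed by more.

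**Figure D2:**
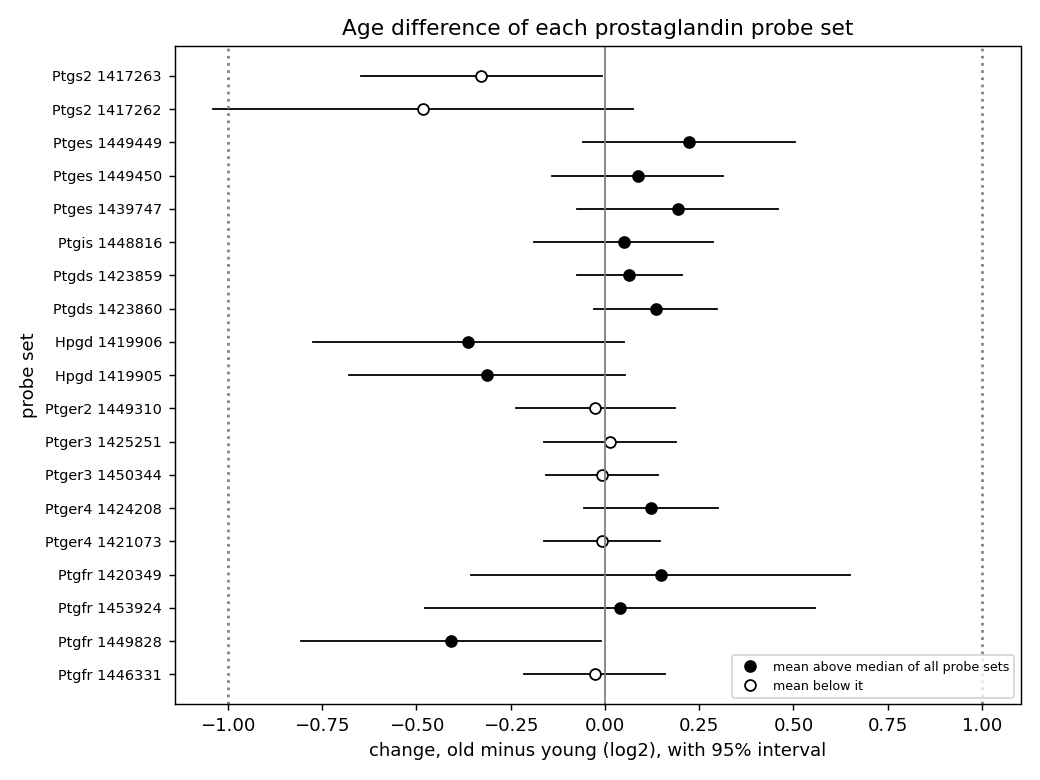
Difference between old and young mice (log2, points) with its 95% interval (lines) for the 19 member probe sets, filled where the mean level was above the median of all probe sets and open where it was below. Intervals of 17 probe sets include 0, and those of 1 probe set each of Ptgs2 and Ptgfr end just below it.

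Ptger2, Ptger3 and Ptger4 encode receptors for prostaglandin E2. The products of Ptger2 and Ptger4, the receptors EP2 and EP4, raise cyclic AMP, and that of Ptger3, EP3, mostly lowers it. Ptger2 read 4.31, 4.06, 3.86 and 3.95 in young and 4.04, 4.05, 4.00 and 3.99 in old mice, close to the control median at both ages (difference -0.03 ± 0.10; limma adjusted p = 0.954). Its sign turned without young replicate 1, the highest of the 8 mice. The brighter probe set of Ptger3 read 4.66, 4.36, 4.37 and 4.41 in young and 4.44, 4.53, 4.42 and 4.46 in old mice, a difference of 0.01 ± 0.08 (limma adjusted p = 0.973) whose sign turned under 5 alternatives, renewed quantile normalization among them. Its other probe set had a mean of 3.64, below the control median. Ptger4 was above the dim threshold by 1 of its 2 probe sets, which read 5.32, 5.38, 5.38 and 5.43 in young and 5.39, 5.52, 5.39 and 5.70 in old mice. Old replicates 2 and 4 lay above all young mice and old replicates 1 and 3 within their range. The difference was 0.12 ± 0.08 (SE; 95% interval -0.06 to 0.31; limma adjusted p = 0.572), or 0.06 without old replicate 4. The other probe set of Ptger4, with a mean of 3.56, differed by -0.01 ± 0.07.

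Ptgfr encodes FP, the receptor for prostaglandin F2 alpha, and its 4 probe sets gave different readings. The brightest read 8.28, 8.33, 8.31 and 7.56 in young replicates 1 to 4 and 7.72, 8.36, 8.36 and 8.63 in old replicates 1 to 4. One mouse of each age, young replicate 4 and old replicate 1, stood below the rest. The difference was 0.15 ± 0.22 (SE; 95% interval -0.35 to 0.64; limma adjusted p = 0.860), and it was -0.04 without young replicate 4 and 0.33 without old replicate 1. The second read 8.23, 7.95, 7.58 and 7.32 in young and 7.27, 8.02, 7.81 and 8.14 in old mice, a difference of 0.04 ± 0.23. The dimmest of the 3 above the dim threshold read 6.61, 6.78, 6.54 and 7.03 in young and 5.85, 6.34, 6.43 and 6.71 in old mice. Here 3 of the 4 old mice lay below every young mouse, and old replicate 4 lay within the young range. It differed by -0.41 ± 0.18 (SE; 95% interval -0.80 to -0.01; unadjusted p = 0.045, limma adjusted p = 0.354 among all probe sets). The fourth was dim, with a mean of 3.95, and differed by -0.03 ± 0.08.

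Over the 8 mice the first and second probe sets of Ptgfr had Pearson r = 0.84 (exact permutation p = 0.0112, adjusted over 8 pairs 0.0299) and Spearman's rho = 0.57 (p = 0.143, adjusted 0.228), and r fell to 0.31 without the 2 mice farthest from the median, so the relation rests on those. The third had r = 0.09 with the first and 0.23 with the second (exact permutation p = 0.824 and 0.592, adjusted 0.824 and 0.676; rho = -0.13 and 0.19, p = 0.761 and 0.665, both 0.868 adjusted), and 0.28 and 0.27 without the 2 farthest mice. By run of title numbers, the first probe set differed by -0.27 in the first run and by 0.56 in the second. The second probe set differed by -0.45 in the first run and by 0.53 in the second, with 2 young against 2 old mice in each. In limma the difference between the runs did not pass the threshold (adjusted p = 0.704 for the gene by its first probe set, and 0.672 for the second probe set among all probe sets). The third probe set was lower in old mice in both runs, with differences of -0.60 and -0.21. The mean over all 4 probe sets gave a gene difference of -0.06.

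**Figure D3:**
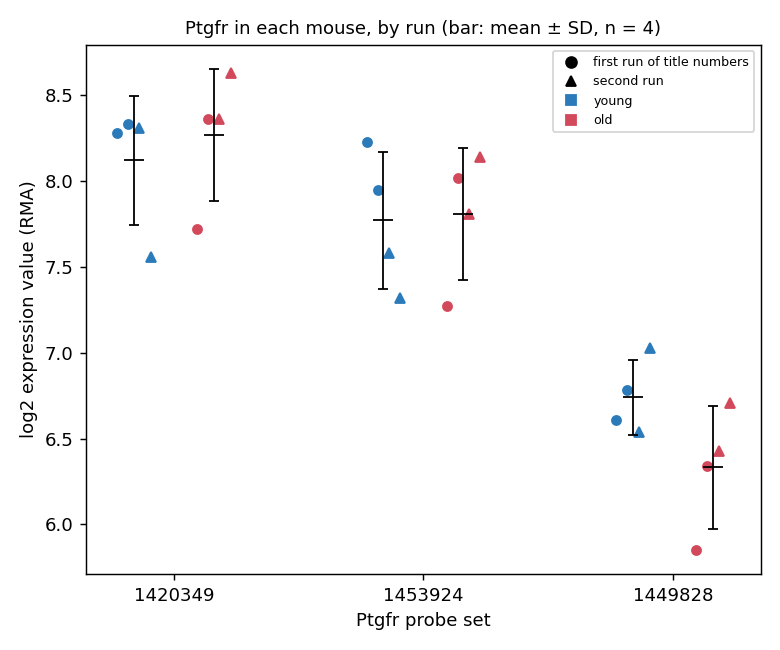
Log2 expression values (RMA) of the 3 Ptgfr probe sets above the dim threshold, 1 point per mouse, young in blue and old in red, circles for the first run of title numbers and triangles for the second, with bars for the mean ± SD of 4 mice. In the middle probe set the young circles lie above the young triangles, and in the right-hand one 3 of the 4 old mice lie below the young mice.

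In the other genes with several probe sets above the dim threshold, the relation between probe sets varied. The first probe set of Ptges and the third had r = 0.96 (exact permutation p = 0.00149, adjusted 0.00595; rho = 0.90, p = 0.00516, adjusted 0.0206), and r was 0.74 without the 2 mice farthest from the median. Its second probe set had r = 0.60 with the first and 0.69 with the third (exact permutation p = 0.113 and 0.0541, adjusted 0.181 and 0.108; rho = 0.57 and 0.65, p = 0.143 and 0.0911, both 0.228 adjusted), and 0.39 and 0.11 without the 2 farthest mice. The pair of Ptgds had r = 0.23 (exact permutation p = 0.575, adjusted 0.676; rho = 0.07, p = 0.868), and -0.39 without the 2 farthest mice. With each age centred on its own mean, r was 0.93 in Hpgd, 0.94 for the first probe set of Ptges and the third and 0.85 for the first and second of Ptgfr. In Ptgds the values spanned less than in Hpgd or Ptges.

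Genes around the members were read from 7 lists of the wider pathway, of which 69 of 77 genes were measured. Of these 69, 5 rose and 1 fell past limma's threshold, or 8.7% against 3.97% of all genes. The count was 3 when old replicate 3, young replicate 2 or young replicate 3 was left out. With the 2 runs of title numbers as a block it was 9, against 5.38% of all genes called in that fit: the same 6 with Pla2g2e, Il1r2 and Tnfrsf1b. An unadjusted p under 0.05 in limma was found for 16 of the 69, against 15.1% of all genes. The median difference over the 69 was 0.04, against 0.01 over all genes. The lists were chosen with earlier results of these data known. A share above that of all genes therefore cannot be read as an excess of age differences around the members.

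Arachidonate release held 2 of the genes that rose, of 14 measured, with a list median of 0.03. Of the 14, 5 had an unadjusted p under 0.05 in limma, against 15.1% of all genes. Summed over the list, the log2 signal ran from 11.86 to 12.0 in young and from 11.66 to 11.83 in old mice, lower in every old mouse. Most of that sum is the signal of Pla2g2e, with means of 11.59 in young and 11.29 in old mice. The sum therefore gives no direction for the list as a whole. Plaat3, a phospholipase best known from adipose tissue, read 4.91, 4.86, 5.0 and 5.44 in young and 6.11, 6.44, 6.50 and 6.27 in old mice. All old mice lay above all young mice, and Plaat3 rose by 1.28 ± 0.14 (SE; limma adjusted p = 0.00126), or 2.42-fold. Plaat3 had 1 probe set, and its young mean of 5.05 lay just under the dim threshold. Mgll, monoacylglycerol lipase, which frees arachidonic acid from an endocannabinoid, read 6.04, 5.81, 5.47 and 5.67 in young and 6.14, 6.54, 6.73 and 6.80 in old mice and rose by 0.80 ± 0.16 (limma adjusted p = 0.0242). Leaving out single mice ended the call in 6 of 8 fits (adjusted p up to 0.0686), and its other probe sets differed by 0.82, 0.42 and 0.16. Mgll differed by 0.415 in the first run of title numbers and by 1.195 in the second. In limma the difference between the runs did not pass the threshold (adjusted p = 0.537). Of the genes not past the threshold, the following are named here after their values were seen. Pla2g5 and Daglb had an unadjusted p under 0.05, with overlapping ages. They differed by 0.32 ± 0.13 and 0.30 ± 0.11 (SE; limma adjusted p = 0.251 and 0.198). Pla2g2e, a secreted phospholipase, read 11.65, 11.49, 11.53 and 11.68 in young and 11.20, 11.38, 11.28 and 11.29 in old mice, with no overlap between the ages. Its difference was -0.30 ± 0.07 (SE; limma adjusted p = 0.0512), which passed in 4 of 16 alternatives (adjusted p from 0.0292 to 0.128). The cytosolic phospholipase gene Pla2g4a had 3.69 ± 0.04 in young and 3.71 ± 0.06 in old mice (SD, n = 4), below the control median.

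Among 9 other prostanoid synthases, 1 rose and 1 fell (list median 0.01), and only these 2 had an unadjusted p under 0.05. Ptges3, the cytosolic prostaglandin E synthase better known as the Hsp90 co-chaperone p23, read 9.27, 9.16, 9.47 and 9.30 in young and 9.69, 9.76, 9.75 and 9.99 in old mice. It rose by 0.50 ± 0.09 (SE; limma adjusted p = 0.0162), and its other probe set differed by 0.61 without passing (limma adjusted p = 0.0529 among all probe sets). Prxl2b, which encodes a prostaglandin F synthase, read 8.05, 7.98, 8.08 and 7.79 in young and 7.44, 7.66, 7.43 and 7.51 in old mice. It fell by 0.47 ± 0.09 (limma adjusted p = 0.0168), and 4 of 8 fits that left out single mice ended that call (adjusted p up to 0.0538).

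Of 7 other genes of breakdown and transport, 1 rose (list median 0.04) and 2 had an unadjusted p under 0.05. Abcc4, a transporter that carries prostaglandins out of cells, read 8.81, 8.80, 8.82 and 8.60 in young and 9.27, 9.53, 9.72 and 9.52 in old mice. It rose by 0.75 ± 0.10 (SE; limma adjusted p = 0.00322), or 1.68-fold, and kept its call in all 16 alternatives, as Plaat3 and Ptges3 did. The largest limma adjusted p over these was 0.0133 for Abcc4 and 0.00696 for Plaat3, but 0.0498 for Ptges3, just under the threshold. Ptgr1, a prostaglandin reductase named after its values were seen, was lower in old mice without passing (-0.51 ± 0.18; limma adjusted p = 0.181). Its ages did not overlap, and it differed by -0.81 in the first run of title numbers and by -0.215 in the second. Of the 5 genes measured on the list of other prostanoid receptors, 0 passed limma's threshold and 0 had an unadjusted p under 0.05. The 2 with the smallest p were Ptgdr2, a receptor for prostaglandin D2 that was dim (0.20 ± 0.11), and Ptgfrn (-0.23 ± 0.14). Ptgfrn encodes a membrane protein known to associate with FP and is not itself a prostanoid receptor. Ptgir, the prostacyclin receptor gene, was listed but not measured.

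**Figure D4:**
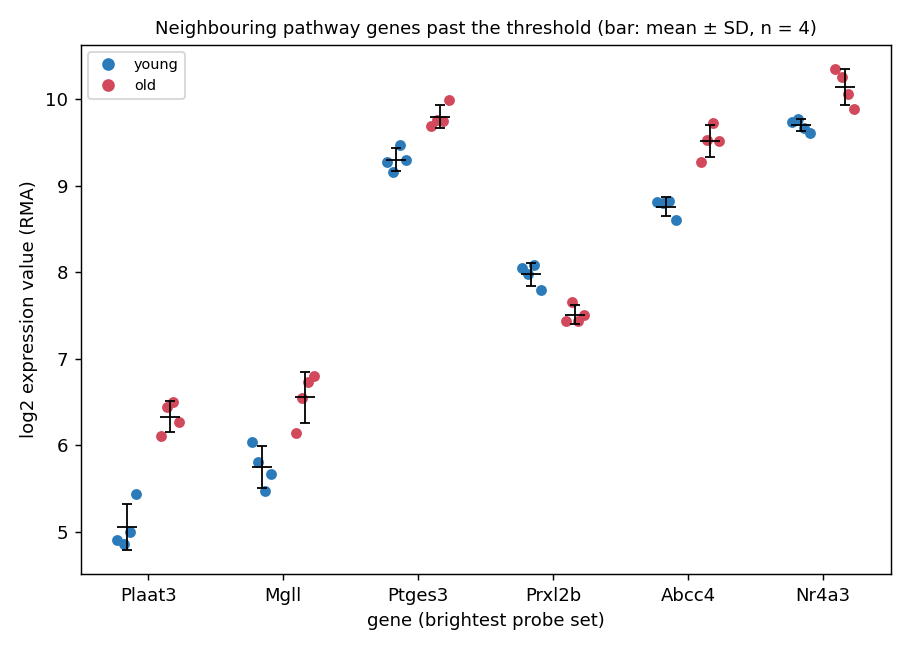
Log2 expression values (RMA) of the 6 pathway genes past limma's threshold, by the brightest probe set of each, 1 point per mouse, young in blue and old in red, with bars for the mean ± SD of 4 mice. Old mice lie above young mice in Plaat3, Mgll, Ptges3, Abcc4 and Nr4a3 and below them in Prxl2b.

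Downstream, the cyclic AMP response list gave 1 gene that rose of 10 measured (list median 0.02). Nr4a3, an early-response transcription factor, read 9.74, 9.77, 9.67 and 9.61 in young and 10.35, 10.25, 10.06 and 9.89 in old mice and rose by 0.44 ± 0.10 (SE; limma adjusted p = 0.0447). Its call was lost in 9 of 16 alternatives, 7 of them without 1 mouse (adjusted p up to 0.132). Among all probe sets this brightest one did not pass (limma adjusted p = 0.0565), while the other 2 of Nr4a3, with differences of 0.57 and 0.59, did (limma adjusted p = 0.0238 and 0.0157). Of the 10 genes, 3 had an unadjusted p under 0.05 in limma, against 15.1% of all genes. Besides Nr4a3 these were Pde4d (-0.33 ± 0.09; limma adjusted p = 0.0899) and Fos (-0.20 ± 0.08; limma adjusted p = 0.268). Both were lower in old mice and are named here after their values were seen. Of 11 genes of interleukin-1 and TNF input, the signals that induce Ptgs2, 0 passed limma's threshold. An unadjusted p under 0.05 was found for 3, against the same 15.1% of all genes. Il1r2, the decoy receptor for interleukin-1, differed by 0.31 ± 0.08 (adjusted p = 0.0536) and Tnfrsf1b, a TNF receptor, by 0.77 ± 0.21 (adjusted p = 0.0912). With the runs of title numbers as a block both passed (limma adjusted p = 0.0460 and 0.0461), and over 16 alternatives Il1r2 passed in 5 (adjusted p from 0.0185 to 0.139) and Tnfrsf1b in 1 (from 0.0461 to 0.220). The other probe set of Tnfrsf1b differed by 0.40 ± 0.19, with overlapping ages (limma adjusted p = 0.410 among all probe sets). Its differences were 0.84 in the first run and -0.04 in the second. Traf6, named after its values were seen, was the remaining gene with an unadjusted p under 0.05. It was lower in old mice (-0.25 ± 0.08; limma adjusted p = 0.139). Of 13 genes of the lipoxygenase, leukotriene and epoxide branch, 0 passed and 1 had an unadjusted p under 0.05. This was Alox5ap, which presents arachidonic acid to 5-lipoxygenase (-0.19 ± 0.08) and was dim. Aloxe3, a skin lipoxygenase, had the next smallest p (-0.09 ± 0.06).

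**Figure D5:**
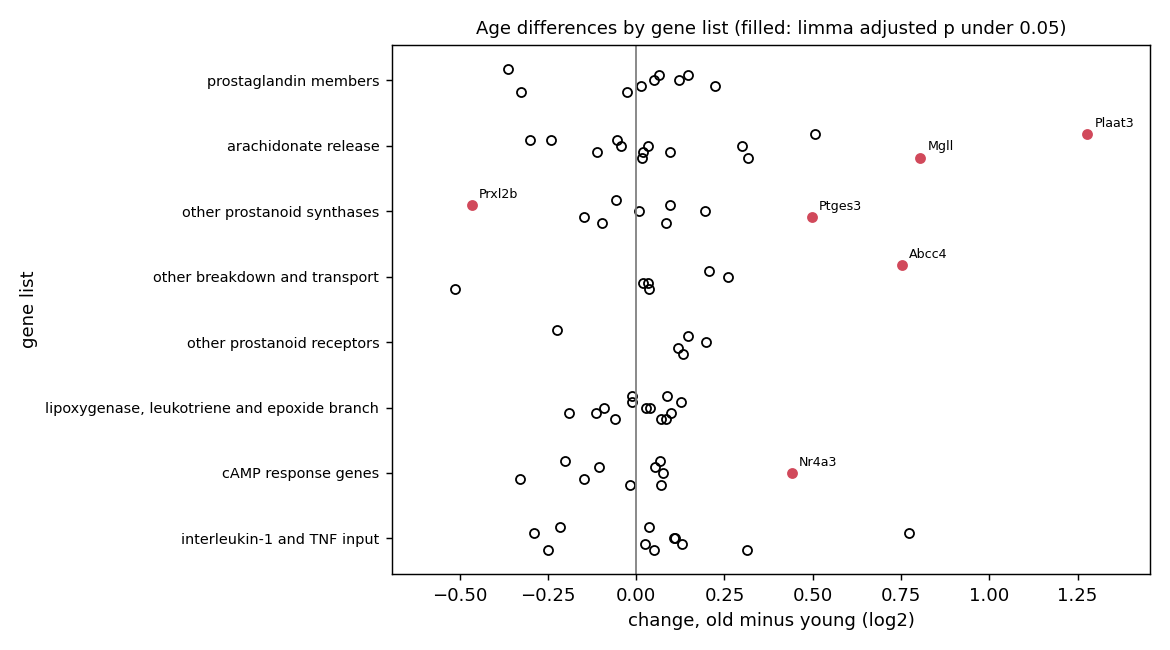
Difference between old and young mice (log2) for the 9 measured members and for the 69 measured genes of the 7 pathway lists, 1 point per gene, filled and named where limma's adjusted p was under 0.05. No member is filled, and the 6 filled points lie in 4 of the lists.

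Markers of the sorted cells and of other cell types were read in the same fit. In that fit 3.97% of all genes passed limma's threshold and 15.1% had an unadjusted p under 0.05. Of 6 fibroblast markers, 0 passed limma's threshold and 3 had an unadjusted p under 0.05. Cd34, Col1a1, Dcn and Lum had mean levels of 10.82 or more at both ages, and Cd34 differed by 0.20 ± 0.06 (SE). Col1a2, by the 1 probe set with its symbol alone, read 7.33 in young and 6.92 in old mice (-0.40 ± 0.16). The difference was -0.725 in the first run of title numbers and -0.08 in the second. Pdgfra, a marker of the sort, read 5.06 in young and 4.47 in old mice (-0.59 ± 0.16), below the dim threshold. Of 5 melanocyte markers, 1 rose and 2 had an unadjusted p under 0.05. Mlana rose by 2.88 ± 0.34 (limma adjusted p = 0.00194), and Mitf read 7.69 in young and 8.25 in old mice (0.57 ± 0.22; limma adjusted p = 0.231). Dct, Tyr and Pmel had means between 4.23 and 5.50, and the log2 of the list's summed signal ran from 8.35 to 8.84 in young and from 9.40 to 10.48 in old mice. Of 5 dermal papilla markers, 1 fell and 2 had an unadjusted p under 0.05. Crabp1, a retinoic acid-binding protein, fell by 2.32 ± 0.17 (limma adjusted p = 0.000166) from a mean of 11.57, and Lef1, which was dim, differed by -0.32 ± 0.11 (limma adjusted p = 0.168). The dermal papilla sum ran from 11.30 to 11.84 in young and from 9.19 to 9.85 in old mice. That sum was mostly the signal of Crabp1, the brightest of the list at both ages. Alx4 read 5.67 in young and 5.68 in old mice, and Sox2 and Corin had means from 3.37 to 3.85, below the control median. Of 5 keratinocyte markers, 0 passed and 2 had an unadjusted p under 0.05. These were Krt5 (1.12 ± 0.42; limma adjusted p = 0.221) and Epcam, a marker the sort excluded (0.40 ± 0.10; limma adjusted p = 0.0584). The summed signal of the 5 ran from 8.18 to 9.10 in young and from 8.60 to 10.30 in old mice. Krt5, Krt1 and Krt10 were highest in old replicate 3, at 8.78, 6.38 and 9.13, and Krt14 in young replicate 4, at 7.29. Of 4 endothelial markers, 0 passed and 1, Kdr, had an unadjusted p under 0.05 (0.35 ± 0.12), with sums from 7.05 to 7.33 in young and from 7.28 to 7.54 in old mice. Of 7 macrophage and leukocyte markers, 6 mast cell markers and the 8 measured markers of pericytes and smooth muscle, Schwann cells and adipocytes, 0 passed limma's threshold and 0 had an unadjusted p under 0.05. Ptprc, Adgre1, Kit, Cpa3 and Fcer1a had means from 3.43 to 4.20, while Csf1r read 8.85, Cd68 6.69 and Cma1 6.35 in young mice. The part of these marker differences in the 6 pathway genes that passed was not tested.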

How the data were processed

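The authors deposited log2 values, 1 per probe set and array. RMA and affy are named as their tools, without versions, per the submitters' processing notes. RMA adjusts background, normalizes arrays to one distribution and summarises each probe set. Array medians ran from 5.06 to 5.14, and 0 arrays were duplicates. Precision is limited by the number of arrays. In the platform annotation used for gene names, 28898 probe sets had 1 symbol, 551 several and 15692 none.

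Old and young mice were compared with limma 3.58.1 in R 4.3.3 (lmFit, eBayes, 2-sided) with Benjamini-Hochberg adjustment, over 17097 genes by the probe set of each with the highest mean, and over all 45037 probe sets that are not array controls. Each array is a separate mouse. Intervals are limma's 95% intervals. Correlations between probe sets used exact permutation over 8 mice, 2-sided. Start regions came from RefSeq for 9 of the 10 members. The limma script was tested on simulated arrays.

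Members and pathway lists were chosen with earlier results of these data known. All members are named, with every pathway gene past the threshold or, in lists without one, the 2 with the smallest p. Alternatives changed the eBayes prior, array weights, dim filter, scaling, handling of several probe sets, a block of title number runs and the mice included.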

Additional observations from a re-analysis of the deposited data

Results flagged for a closer look

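In 62 groups of 4 mice, 3 held a mouse far from the other 3 of its age, a gap that chance gives in about 1 group in 20. In the brightest probe set of Ptgfr, young replicate 4 read 7.56 and the other young mice 8.28 to 8.33. In that of Ptger3, young replicate 1 read 4.66 and the other young mice 4.36 to 4.41, all dim. In Abcc4, young replicate 4 read 8.60 and the other young mice 8.80 to 8.82, below every old mouse.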

How the results depend on the processing

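The count of member genes past limma's threshold stayed 0 under 16 alternatives (lowest adjusted p 0.160) and that of member probe sets 0 under 15 (lowest 0.165). Ptgs2, Ptger2 and Ptger3 could not be fitted with dim genes left out. The differences of Ptgs2, Ptges, Ptgds, Hpgd and Ptger4 kept their sign in every alternative run. Signs turned for 4 members, none of them called: without 1 mouse in turn, Ptgis ran from -0.0050 to 0.12, Ptger2 from -0.087 to 0.063, Ptger3 from -0.018 to 0.082 and Ptgfr from -0.039 to 0.33, Ptger3 was -0.0016 with renewed quantile normalization, and averaging its probe sets gave Ptgfr -0.062. The other pathway genes called numbered 6, and from 3 to 7 without 1 mouse. The causes of the turned signs were not tested. With 2 runs of title numbers as a block, 0 members and 9 of the 69 pathway genes passed. No paired analysis was possible because no label pairs a young mouse with an old one, and replicate numbers follow only the order of deposit. The signal of Ptgs2, Ptger2 and Ptger3 over the controls limits what can be said of them.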
